A study of Mus musculus with 10 samples.

Results

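Transcript levels of 36 genes of fatty acid and triglyceride synthesis were followed in regenerating livers of mice with and without hepatocyte deletion of Arid1a, a subunit of the SWI/SNF chromatin remodeller. The genes were chosen by name to cover acetyl-CoA supply, palmitate synthesis, elongation, desaturation and acyl transfer to glycerol, together with the transcription factor gene Srebf1. All 36 were found, at 1 locus each, among the 23535 loci with values in the deposited table. Of these, 30 reached a mean of 1 FPKM (fragments per kilobase of transcript with mapped fragments scaled to a common total) over the 6 libraries and were tested, and 6 did not.

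The KO mice were Arid1a Fl/Fl, homozygous for the floxed gene, and carried Alb-cre. In this transgene the albumin promoter drives Cre recombinase in hepatocytes. The labels do not say which other liver cells keep the gene. The WT mice were Arid1a Fl/Fl without Cre, so the floxed allele is common to both groups. Their strain is given as a C57/B6 and 129 mix and their age as 90 days, and the liver was taken 40 h after partial hepatectomy, an operation that removes most of the organ. There were 3 KO and 3 WT libraries. The 4 libraries from livers before hepatectomy were not analysed here. No label ties a library to its own animal, so the p-values cover the spread among these libraries alone, which may be technical. Whole liver was sequenced, so fewer cells of a type and less RNA per cell cannot be told apart.

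Hepatocytes make fatty acids from cytosolic acetyl-CoA, which is carboxylated to malonyl-CoA and built into palmitate. Palmitate is then elongated and desaturated, and acyl chains are joined stepwise to glycerol-3-phosphate to give phosphatidate, diacylglycerol and finally triglyceride. In liver the pathway is driven by insulin through SREBP-1c, a product of Srebf1, by the carbohydrate-responsive factor ChREBP and by the liver X receptors. After hepatectomy the remaining liver passes through a transient accumulation of triglyceride.

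The deleted gene, Arid1a, lies at chr4:133679008-133753611 (mm10). Its level was 4.41, 5.57 and 6.15 FPKM in KO replicates 1, 2 and 3 and 8.68, 8.45 and 8.49 FPKM in WT replicates 1, 2 and 3. Every KO library lay below every WT library (exact two-sided permutation p = 0.1, the smallest that 3 against 3 allows), with a log2 difference of -0.59 (SE 0.15) that limma did not call (adjusted p = 0.207). FPKM summed to between 430725 and 495209 in KO libraries and between 409142 and 480544 in WT libraries, and the depth in reads is unknown. As deposited, the median log2 difference of all 10956 genes tested was 0.15 in KO relative to WT. Differences relative to that shift are also given for Fasn, Thrsp, Scd2 and Agpat6 and for medians of gene lists. The other log2 differences include the shift unless given after rescaling. The hepatocyte markers were abundant in all 6 libraries, with Alb between 16226 and 29106 FPKM in KO and between 22616 and 29437 FPKM in WT.

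The mitotic genes set KO replicate 2 apart from the other KO libraries. The summed level of 15 mitotic genes was 373, 18.2 and 612 FPKM in KO replicates 1, 2 and 3 and 22.2, 12.1 and 56.5 FPKM in WT replicates 1, 2 and 3. KO replicate 2 thus lay within the WT range. Log2 differences without this library are given below for the tested members at which it was the lowest of the 6, and for some others.

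Promoter windows are shown for 3 members, none of which was called in the comparison below. They are Fasn and Thrsp, the tested members with the lowest log2 differences, and Srebf1, the transcription factor gene among the members. Each window runs from 250 bases before to 50 bases after a RefSeq start site (GRCm38.p6, the assembly of mm10) and is printed 5′ to 3′ on the gene's strand. Capitals mark matches on either strand to TCACCC, the core of the sterol regulatory element bound by SREBP, to CACGTG, an E-box, or to CCAAT, the Y-box bound by NF-Y. Matches may overlap, as in the Fasn window. Of 3 RefSeq starts of Srebf1, the window shown is the 1 that lies wholly within the locus of the deposited table.
Fasn, chr11:120824498-120824797, minus strand: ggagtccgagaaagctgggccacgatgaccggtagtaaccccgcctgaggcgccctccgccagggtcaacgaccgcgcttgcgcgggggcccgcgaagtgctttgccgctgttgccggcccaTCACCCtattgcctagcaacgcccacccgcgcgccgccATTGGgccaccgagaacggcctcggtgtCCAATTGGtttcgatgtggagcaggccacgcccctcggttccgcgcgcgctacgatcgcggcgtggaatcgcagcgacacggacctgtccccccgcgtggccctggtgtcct
Thrsp, chr7:97417501-97417800, minus strand: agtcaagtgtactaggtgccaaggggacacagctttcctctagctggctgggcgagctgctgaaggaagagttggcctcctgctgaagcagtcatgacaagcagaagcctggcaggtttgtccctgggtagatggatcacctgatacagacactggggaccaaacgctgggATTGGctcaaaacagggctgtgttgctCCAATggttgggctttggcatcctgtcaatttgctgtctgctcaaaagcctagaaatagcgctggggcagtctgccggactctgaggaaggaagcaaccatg
Srebf1, chr11:60210422-60210721, minus strand: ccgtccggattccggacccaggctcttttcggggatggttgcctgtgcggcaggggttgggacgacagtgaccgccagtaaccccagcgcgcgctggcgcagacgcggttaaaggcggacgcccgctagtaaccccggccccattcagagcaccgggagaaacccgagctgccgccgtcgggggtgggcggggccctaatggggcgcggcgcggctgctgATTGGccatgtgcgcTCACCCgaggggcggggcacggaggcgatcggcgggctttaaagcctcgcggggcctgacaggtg

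The Fasn window held 1 TCACCC and 3 CCAAT matches, the Thrsp window 2 CCAAT matches, and the Srebf1 window 1 TCACCC and 1 CCAAT match. RefSeq windows were matched for 29 of the 36 members, 39 windows in all; Elovl3, Scd1, Scd2, Fads1, Agpat6, Dgat1 and Dgat2 had none. TCACCC was present in 28.2% of the members' windows and in 16.2% of all 32851 windows. CACGTG was present in 10.3% of the members' windows and in 7.15% of all windows, and CCAAT in 51.3% of the members' windows and 37.4% of all windows. These are matches of letters only and were not tested for binding.

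KO was compared with WT to ask which steps of lipid synthesis differ in regenerating liver when hepatocyte Arid1a is targeted. None of the 30 tested members passed an adjusted p of 0.05 in limma. The smallest adjusted p was 0.30, and 0.119% of all genes tested were called. At an unadjusted p under 0.05 there were 3 members (10%), Fasn and Thrsp lower and Scd2 higher in KO, against 15.2% of all genes tested. The genotypes were separated, with no library of KO inside the WT range or the reverse, for 5 members (16.7%), against 22.1% of all genes tested, so neither share stood above the background. Of the 5, Fasn was lower in KO, as 5.44% of all genes tested were, and Elovl1, Scd2, Fads3 and Agpat6 were higher, as 16.7% were. After median-of-ratios rescaling, which brings the libraries to a common level of the typical gene, Fasn and Acaca were separated (6.67%, against 17.7% of all genes tested), both lower in KO, as 9.79% were. Without KO replicate 2, described above, 0 members were called, against 2.21% of all genes tested. The members' median log2 difference was 0.02, which is -0.13 relative to the median of all genes. Of the 30, 11 lay above that median and 19 at or below it.

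**Figure D1:**
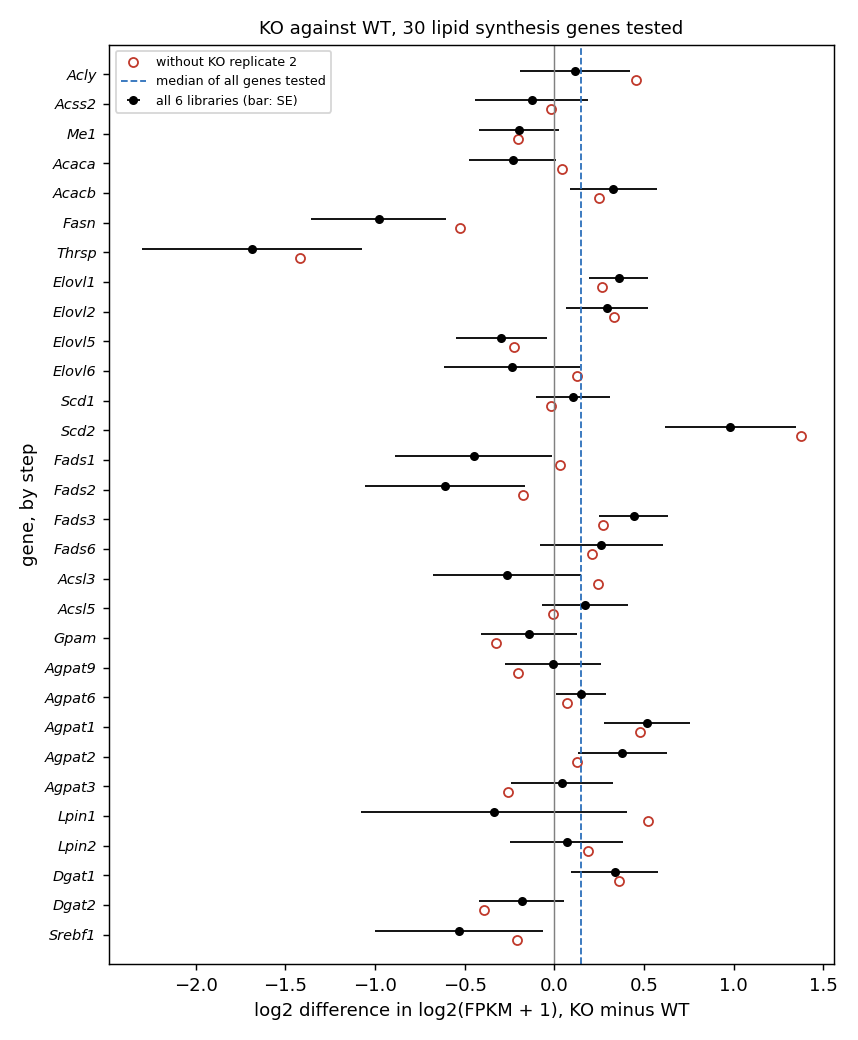
Log2 differences (KO minus WT, in log2(FPKM + 1)) of the 30 tested lipid synthesis genes, by step from acetyl-CoA supply at the top to Srebf1 at the bottom. Black points are fits of all 6 libraries with bars for 1 SE, red circles leave out KO replicate 2, and the dashed line is the median of all genes tested, 0.15. Thrsp and Fasn lie lowest and Scd2 highest.

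The limit of this comparison is the spread between libraries. The median SE of the members' log2 differences was 0.27. For 19 of 30 members the 95% interval of the difference lay wholly between -1 and 1, so that a change of more than 2-fold on the log2(FPKM + 1) scale lay outside it. For the other 11 a difference of that size was within the interval and was not resolved.

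Among the supply enzymes no difference was resolved. Acly encodes ATP-citrate lyase, which makes cytosolic acetyl-CoA from citrate. It was 41.5, 21.6 and 48.9 FPKM in KO and 29.5, 31.6 and 37.2 FPKM in WT (log2 difference 0.11, SE 0.31, adjusted p = 0.874). KO replicates 1 and 3 lay above all WT libraries and KO replicate 2 below them, and without KO replicate 2 the difference was 0.45. Acss2, which makes acetyl-CoA from acetate, averaged 8.48 ± 1.45 FPKM in KO and 9.92 ± 4.65 FPKM in WT (SD, n = 3 each). Me1, the malic enzyme that supplies NADPH, averaged 14.2 ± 2.60 FPKM in KO and 16.5 ± 3.88 FPKM in WT. The models of Acss2 and Me1 each overlap that of another locus, and the division of reads there is uncertain.

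Fasn, on chromosome 11 (120805958 to 120824547, mm10), encodes fatty acid synthase, which builds palmitate from malonyl-CoA. It was 24.0, 8.14 and 21.2 FPKM in KO replicates 1, 2 and 3 and 35.4, 29.4 and 34.0 FPKM in WT replicates 1, 2 and 3. Every KO library lay below every WT library, before and after median-of-ratios rescaling. The KO mean was 53.9% of the WT mean, a log2 difference of -0.98 (SE 0.38, 95% interval -1.88 to -0.08) or -1.13 relative to all genes. The unadjusted p was 0.0367 and limma's adjusted p was 0.309. Without KO replicate 2, the lowest library, the log2 difference was -0.53 (adjusted p = 0.172).

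Thrsp encodes Spot14, a nuclear and cytosolic protein that responds to thyroid hormone and carbohydrate and promotes lipogenesis. It was 4.80, 1.96 and 3.56 FPKM in KO and 28.2, 4.25 and 16.0 FPKM in WT. WT replicates 1 and 3 were far above all KO libraries, while WT replicate 2 lay within the KO range. The log2 difference was -1.69 (SE 0.61, 95% interval -3.14 to -0.23), or -1.83 relative to all genes, with an unadjusted p of 0.0291 and an adjusted p of 0.30. It was -1.42 without KO replicate 2 (adjusted p = 0.331). Within WT the highest value was 6.65 times the lowest.

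The acetyl-CoA carboxylases make malonyl-CoA. Acaca, the cytosolic form used for synthesis, was 15.6, 8.45 and 15.7 FPKM in KO and 14.7, 15.8 and 15.0 FPKM in WT (log2 difference -0.23, SE 0.24, adjusted p = 0.657). Outside KO replicate 2 the 5 libraries lay between 14.7 and 15.8 FPKM, and without that library the difference was 0.04. After median-of-ratios rescaling all KO libraries lay below all WT libraries for Acaca, with KO replicate 2 the lowest as for Fasn. Unlike for Fasn, the groups overlapped as deposited, so the separation of Acaca rests on the rescaling. Acacb, the form at the mitochondrial surface that restrains fatty acid oxidation, averaged 7.95 ± 0.974 FPKM in KO and 6.35 ± 2.45 FPKM in WT (SD, n = 3 each; log2 difference 0.33, SE 0.24).

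**Figure D2:**
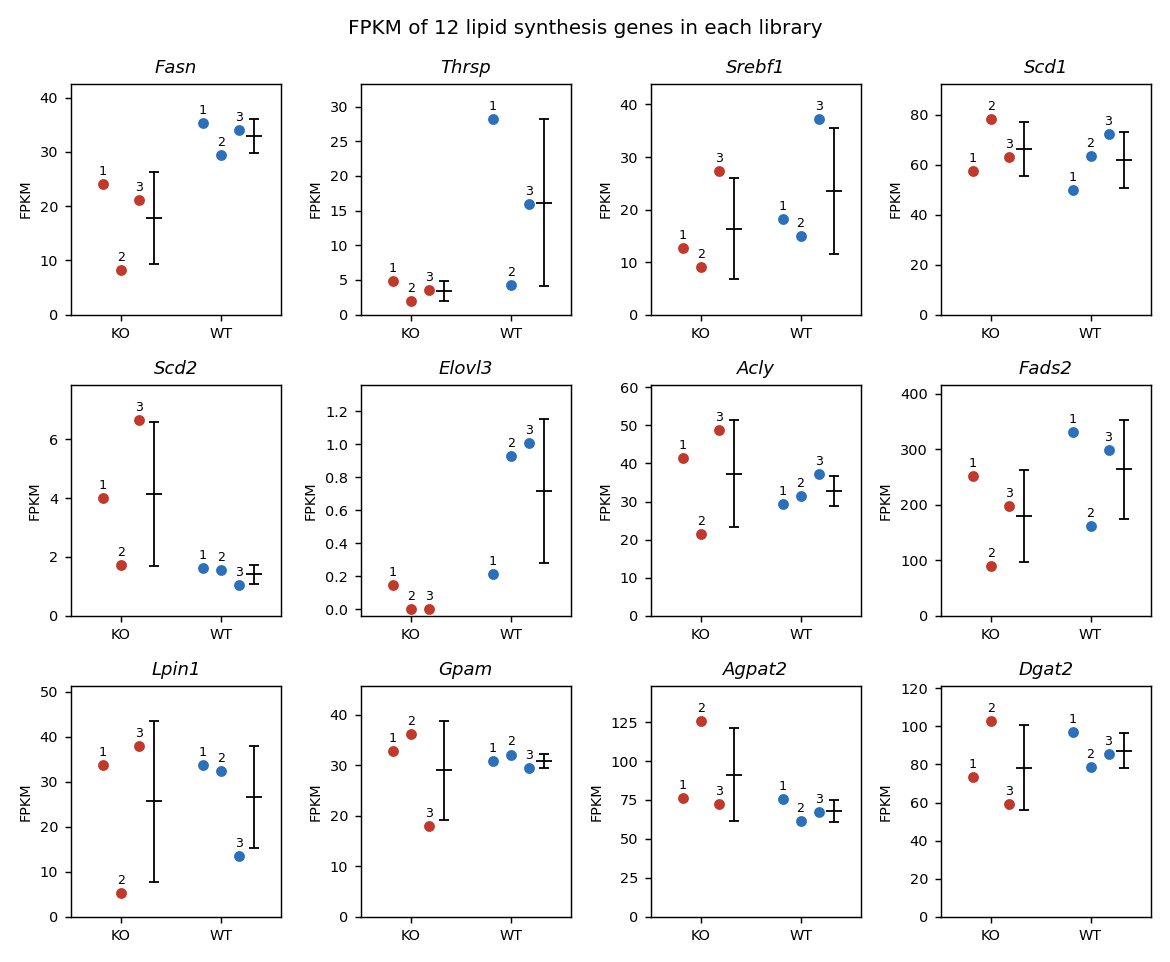
FPKM of 12 lipid synthesis genes in each library, KO (red) left of WT (blue), with replicate numbers; bars beside the points are the mean and SD of 3 libraries and are left out where a library is listed at 0. All KO points of Fasn lie below all WT points and all KO points of Scd2 above them, and KO replicate 2 is the lowest library for Acly, Fads2 and Lpin1 and the highest for Agpat2 and Dgat2.

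Among the desaturases, Scd1 and Scd2 gave unlike values. Scd1 encodes the main stearoyl-CoA desaturase of liver, which makes oleate and palmitoleate. It was 57.6, 78.4 and 63.2 FPKM in KO and 50.03, 63.5 and 72.1 FPKM in WT, and the groups overlapped (log2 difference 0.10, SE 0.21, adjusted p = 0.826, 95% interval -0.39 to 0.60). Its direction turned after either rescaling. Scd2 is a neighbouring paralog on chromosome 19 (44293676 to 44306862, mm10), known from embryonic and non-hepatic tissues. It was 4.01, 1.74 and 6.66 FPKM in KO and 1.63, 1.54 and 1.04 FPKM in WT. All KO libraries lay above all WT libraries, KO replicate 2 by a narrow margin that was gone after median-of-ratios rescaling.

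The Scd2 log2 difference was 0.98 (SE 0.37, 95% interval 0.11 to 1.85), or 0.83 relative to all genes, with an unadjusted p of 0.0322 and an adjusted p of 0.306. Without KO replicate 2 it was 1.37 (adjusted p = 0.0513). The Scd genes are close in sequence, so the division of reads among them is uncertain. Scd2 is abundant in fat; of 11 adipocyte genes, 4 (Adipoq, Lep, Plin1 and Retn) were listed at 0 in all 6 libraries, and the list summed to between 613 and 774 FPKM in KO and between 740 and 887 FPKM in WT, most of it Pck1, which hepatocytes also express. Fabp4 of the same list averaged 7.56 ± 2.69 FPKM in KO and 3.77 ± 1.08 FPKM in WT (SD, n = 3 each; log2 difference 0.81, unadjusted p = 0.0303, adjusted p = 0.304 in limma), with overlapping groups. It was the only 1 of the 4 tested genes of that list with a positive difference. The other 3 were negative: Car3 (-1.85), Lipe (-0.22) and Pck1 (-0.17). The summed level of 12 macrophage genes was 226, 177 and 136 FPKM in KO and 149, 184 and 121 FPKM in WT, overlapping between the groups. Of the 12, Marco did not overlap, at 16.9, 27.6 and 11.8 FPKM in KO and 9.84, 8.99 and 5.11 FPKM in WT (log2 difference 1.10, unadjusted p = 0.0161, adjusted p = 0.264 in limma), and it was highest in KO replicate 2, where Scd2 was lowest among KO. Fabp4 and Marco are named after their values were seen, and the part of adipocytes or macrophages in the Scd2 values was not tested. The highest Scd2 values were in KO replicates 3 and 1, the libraries with the highest summed mitotic genes, while within WT replicate 3 had the highest sum and the lowest Scd2; whether the values are linked was not tested.

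The 4 most abundant members by mean FPKM were Fads2, Elovl2, Fads1 and Elovl5, all of which act on polyunsaturated fatty acids. Fads2, which begins the conversion of linoleate and alpha-linolenate, had the highest mean of all members, 222 FPKM over 6 libraries. It was 251, 89.6 and 198 FPKM in KO and 330, 162 and 298 FPKM in WT (log2 difference -0.61, SE 0.45, adjusted p = 0.523). Fads1, its neighbour, which acts later in the same conversion, was 137, 44.7 and 111 FPKM in KO and 125, 90.0 and 156 FPKM in WT (log2 difference -0.45, SE 0.44, adjusted p = 0.629). For both genes KO replicate 2 was the lowest library and WT replicate 2 the next lowest. Without KO replicate 2 the log2 differences were -0.18 for Fads2 and 0.03 for Fads1.

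Fads3, a related desaturase, was 2.64, 4.52 and 3.11 FPKM in KO and 2.51, 2.02 and 2.11 FPKM in WT. The groups did not overlap as deposited, though KO replicate 1 was close to WT replicate 1, and they overlapped after rescaling. The Fads3 log2 difference was 0.44 as deposited (SE 0.19, adjusted p = 0.338 in limma). After median-of-ratios rescaling it was 0.33 (adjusted p = 0.533 in limma). Fads6 averaged 19.9 ± 4.89 FPKM in KO and 17.1 ± 6.92 FPKM in WT (SD, n = 3 each).

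None of the elongases passed the test. Elovl2, which elongates long polyunsaturated chains, was 274, 206 and 181 FPKM in KO and 161, 160 and 214 FPKM in WT (log2 difference 0.29, SE 0.23, adjusted p = 0.545). Elovl5, an elongase of polyunsaturated chains that acts between the Fads steps, was 137, 87.6 and 74.9 FPKM in KO and 111, 113 and 133 FPKM in WT (log2 difference -0.30, SE 0.25, adjusted p = 0.582). KO replicate 1 was the highest library for both, and the groups overlapped. Elovl6, which turns palmitate into stearate, averaged 8.82 ± 3.78 FPKM in KO and 10.4 ± 3.99 FPKM in WT (SD, n = 3 each). Its log2 difference was -0.24 (95% interval -1.14 to 0.67), and 0.13 without KO replicate 2, the lowest library at 4.57 FPKM.

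Elovl1, an elongase of very long saturated chains, was 23.4, 28.0 and 22.6 FPKM in KO and 21.3, 19.1 and 16.6 FPKM in WT (log2 difference 0.36, SE 0.16, adjusted p = 0.349). KO lay above WT in all libraries as deposited but not after rescaling. Its model overlaps that of the mitotic gene Cdc20 by 16 bases, and the part of shared reads was not tested. Elovl3, an elongase of saturated and monounsaturated chains, was among the 6 members under the filter. It was 0.146 FPKM in KO replicate 1 and listed at 0 in KO replicates 2 and 3, and was 0.211, 0.925 and 1.01 FPKM in WT. The groups did not overlap, but all values were near or under 1 FPKM (adjusted p = 0.308 in the fit with no filter).

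Acyl-CoA synthetases activate fatty acids for the later steps. Acsl5 was 77.5, 95.3 and 55.1 FPKM in KO and 64.3, 57.7 and 76.2 FPKM in WT, with overlapping groups (log2 difference 0.17, SE 0.24, adjusted p = 0.744). Acsl3, an isoform of the endoplasmic reticulum and lipid droplets, was 9.62, 2.76 and 9.95 FPKM in KO and 7.32, 7.68 and 9.53 FPKM in WT, so that KO replicate 2 stood below all others (log2 difference -0.27, SE 0.41, adjusted p = 0.775, and 0.24 without it). Its model overlaps that of Utp14b, and its reads are uncertain.

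The glycerol-phosphate acyltransferases begin glycerolipid assembly. Gpam, the main mitochondrial isoform of liver, was 32.8, 36.2 and 17.9 FPKM in KO and 30.8, 32.1 and 29.4 FPKM in WT, with KO replicate 3 below all others (log2 difference -0.14, SE 0.27, adjusted p = 0.815). Agpat6, named Gpat4 in RefSeq, encodes an isoform of the endoplasmic reticulum. It was 21.5, 25.9 and 22.6 FPKM in KO and 21.4, 20.4 and 21.0 FPKM in WT, all KO libraries above all WT libraries by a small margin as deposited (log2 difference 0.15, SE 0.14, adjusted p = 0.623). Relative to all genes this difference was 0.00, and the groups overlapped after rescaling. Agpat9, named Gpat3 in RefSeq, averaged 9.21 ± 2.98 FPKM in KO and 9.10 ± 2.15 FPKM in WT (SD, n = 3 each).

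Lysophosphatidate acyltransferases make phosphatidate, and the 3 among the members had log2 differences of 0.04 to 0.52. Agpat2, whose loss in humans and mice causes lipodystrophy, was 76.2, 126 and 72.2 FPKM in KO and 75.3, 61.5 and 67.1 FPKM in WT (log2 difference 0.38, SE 0.25, adjusted p = 0.478). Agpat3 was 60.2, 106 and 52.6 FPKM in KO and 68.6, 75.3 and 59.6 FPKM in WT (log2 difference 0.04, SE 0.28, adjusted p = 0.952). For both, KO replicate 2 alone stood above the other 5 libraries, and without it the log2 differences were 0.13 and -0.26. Agpat1 averaged 5.75 ± 2.07 FPKM in KO and 3.57 ± 0.269 FPKM in WT (SD, n = 3 each; log2 difference 0.52, SE 0.24, adjusted p = 0.352), and its model overlaps that of Egfl8.

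Lpin1 had the widest spread of the tested members within KO, as a ratio of FPKM. The lipins dephosphorylate phosphatidate to diacylglycerol, and Lpin1 is also a transcriptional coactivator that fasting induces in liver. It was 33.8, 5.19 and 37.9 FPKM in KO and 33.7, 32.4 and 13.5 FPKM in WT. The highest KO value was 7.30 times the lowest and the highest WT value 2.5 times the lowest, so the log2 difference of -0.34 carried an SE of 0.74 (adjusted p = 0.840). Without KO replicate 2 it was 0.52. Lpin2 averaged 28.3 ± 4.34 FPKM in KO and 28.5 ± 11.9 FPKM in WT (SD, n = 3 each). Lpin3, under the filter, was 1.10, 1.43 and 0.930 FPKM in KO and 0.776, 0.555 and 0.942 FPKM in WT.

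The last step, from diacylglycerol to triglyceride, is catalysed by 2 unrelated enzymes, whose transcripts were at unequal levels. Dgat2 was 73.5, 103 and 59.0 FPKM in KO and 97.1, 78.8 and 85.6 FPKM in WT, overlapping between the groups (log2 difference -0.18, SE 0.24, adjusted p = 0.721). Dgat1 averaged 6.01 ± 1.89 FPKM in KO and 4.50 ± 1.07 FPKM in WT (SD, n = 3 each; log2 difference 0.34, SE 0.24, adjusted p = 0.519). The level of Dgat2 was 16.8, 18.3 and 7.31 times that of Dgat1 in KO and 20.5, 23.7 and 15.7 times in WT, with KO replicate 3 lowest.

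The remaining members were barely detected. Pnpla3, a lipid droplet lipase and transacylase gene that SREBP-1c induces, was 0.900, 0.817 and 0.406 FPKM in KO and 0.338, 0.166 and 0.0990 FPKM in WT. All KO libraries lay above all WT libraries, also after rescaling, but all values were under 1 FPKM and the read counts are unknown (adjusted p = 0.294 in the limma fit with no filter). Mogat1, a monoacylglycerol acyltransferase gene, was 0.0815, 1.03 and 0.212 FPKM in KO and 0.0883, 0.221 and 0.0732 FPKM in WT. Gpat2 was 0.472, 0.319 and 0.438 FPKM in KO and 0.401, 0.274 and 0.0303 FPKM in WT. Pnpla5 was listed at 0 in 5 libraries and was 0.0492 FPKM in WT replicate 3.

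Srebf1 encodes SREBP-1a and SREBP-1c, and in liver SREBP-1c induces Fasn, Acaca and Scd1. It was 12.7, 9.03 and 27.3 FPKM in KO and 18.2, 15.0 and 37.3 FPKM in WT. Replicate 3 of each genotype stood well above the others, and the groups overlapped (log2 difference -0.53, SE 0.47, adjusted p = 0.592). The table gives 1 value per locus, so the isoforms could not be separated, and its model overlaps that of Rai1 by 107 bases. The difference was -0.21 without KO replicate 2. Replicate 2 was the lowest library of each genotype for Srebf1 and for Fasn, while replicate 3 was the highest of each genotype for Srebf1 but not for Fasn.

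KO replicate 2 stood at an extreme for 20 of the 30 tested members. It was the lowest of the 6 libraries for 10 tested members: Acly, Acaca, Fasn, Thrsp, Elovl6, Fads1, Fads2, Acsl3, Lpin1 and Srebf1. It was the highest for another 10: Elovl1, Scd1, Fads3, Acsl5, Gpam, Agpat9, Agpat6, Agpat2, Agpat3 and Dgat2. Of all genes tested, KO replicate 2 was the lowest library for 13.1% and the highest for 32.4%, against 33.3% of members each way, so the share of members at which it was highest was near that of all genes. The highest KO value, as FPKM + 1, was over 2 times the lowest for 9 members (30%, against 15.9% of all genes tested), and between KO replicates 1 and 3 alone for 1 member (3.33%, against 3.96%). Within WT the highest value was over 2 times the lowest for 8 members (26.7%, against 8.29% of all genes tested).

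**Figure D3:**
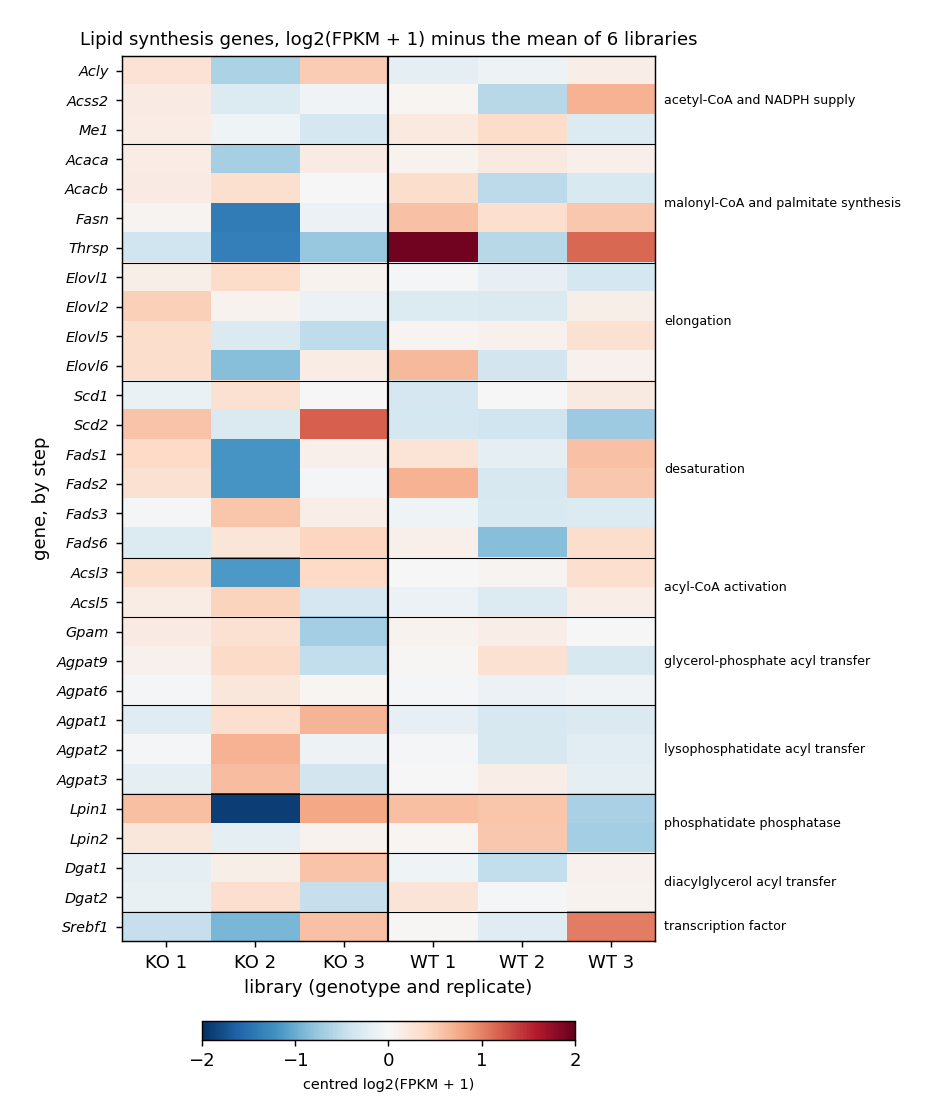
Level of the 30 tested lipid synthesis genes in each library, as log2(FPKM + 1) minus the gene's mean over 6 libraries (colour, from -2 in blue to 2 in red), KO left of WT, in order of step. KO replicate 2 is blue for 10 genes in which it is the lowest library, Lpin1 (5.19 FPKM) and Fasn (8.14 FPKM) the deepest, and red for 10 in which it is the highest.

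Other genes of the pathway gave a like count. Of 27 further genes tested, mostly synthesis enzymes and carriers but with Pnpla2 and Abhd5 of triglyceride breakdown, 0 were called in limma. At an unadjusted p under 0.05 in limma, 2 were higher (7.41%) and 2 lower (7.41%) in KO, against 11.2% and 3.99% of all genes tested. The median log2 difference of the 27 was -0.11, or -0.25 relative to all genes. The genes with the smallest p were Ptplad1 and Ptplb, which encode dehydratases of the elongation cycle, with Acsl4, Agpat5 and Acsl1. Ptplad1 was 75.6, 59.9 and 49.9 FPKM in KO and 105, 88.9 and 103 FPKM in WT (log2 difference -0.69, SE 0.20, adjusted p = 0.239). Ptplb was 16.0, 15.6 and 12.5 FPKM in KO and 10.98, 10.5 and 10.4 FPKM in WT (log2 difference 0.43, SE 0.15, adjusted p = 0.287). The paralogs lay on opposite sides, each without overlap between the groups.

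Among acyl-CoA synthetases outside the members, Acsl4, which prefers arachidonate, was 22.5, 17.9 and 16.8 FPKM in KO and 28.0, 26.3 and 33.1 FPKM in WT (log2 difference -0.59, SE 0.17, adjusted p = 0.242). Acsl1, the main isoform of hepatocytes, averaged 73.0 ± 34.3 FPKM in KO and 121 ± 25.3 FPKM in WT (SD, n = 3 each; log2 difference -0.82, SE 0.37, adjusted p = 0.344). Agpat5 averaged 3.07 ± 0.414 FPKM in KO and 2.03 ± 0.262 FPKM in WT (log2 difference 0.42, SE 0.15, adjusted p = 0.301 in limma). All KO libraries lay above all WT libraries for Agpat5, also after median-of-ratios rescaling.

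Of 24 regulators and SREBP processing genes tested, 0 were called in limma, and at an unadjusted p under 0.05 2 were higher (8.33%) and 1 lower (4.17%) in KO, against 11.2% and 3.99% of all genes tested. Their median log2 difference was -0.06, or -0.21 relative to all genes. Lpl is counted in this list but is not a regulator: it encodes lipoprotein lipase, which releases fatty acids from circulating triglyceride. Lpl was 25.3, 10.3 and 20.2 FPKM in KO and 1.61, 3.10 and 3.86 FPKM in WT. Its log2 difference was 2.31 (SE 0.37, adjusted p = 0.123 in limma). Lpl passed the threshold without KO replicate 2, its lowest KO library (2.66, adjusted p = 0.0183), and under no other alternative. In that fit 2.21% of all genes tested were called, against 0.119% with all 6 libraries. Pparg, a lipogenic nuclear receptor gene, was 1.78, 0.714 and 0.449 FPKM in KO and 4.87, 3.57 and 5.81 FPKM in WT (log2 difference -1.58, SE 0.28, adjusted p = 0.133). Both genes separated the genotypes in all libraries.

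None of the upstream factors passed the test. Mlxipl, which encodes ChREBP, averaged 21.4 ± 1.41 FPKM in KO and 25.4 ± 4.35 FPKM in WT (log2 difference -0.22, SE 0.17, adjusted p = 0.542). Nr1h3, liver X receptor alpha, averaged 38.8 ± 6.29 FPKM in KO and 33.3 ± 4.18 FPKM in WT (log2 difference 0.21, SE 0.19, adjusted p = 0.597). Insig1, a SREBP target that retains SREBP in the endoplasmic reticulum, was 64.2, 15.5 and 41.7 FPKM in KO and 57.7, 57.8 and 76.0 FPKM in WT (log2 difference -0.85, SE 0.48, adjusted p = 0.425). As for Fasn, KO replicate 2 was the lowest library, and without it the log2 difference was -0.29. Srebf2 averaged 18.7 ± 4.30 FPKM in KO and 23.7 ± 1.21 FPKM in WT, and all KO libraries lay below all WT libraries, also after rescaling. The SREBP protease gene Mbtps1 averaged 16.0 ± 1.08 FPKM in KO and 12.97 ± 0.664 FPKM in WT, and the SREBP co-activator gene Med15 averaged 8.86 ± 1.99 FPKM in KO and 5.91 ± 0.450 FPKM in WT (SD, n = 3 each). Both lay above WT in all KO libraries as deposited, and Med15 alone of the pair after rescaling. The Med15 log2 difference was 0.50 as deposited (SE 0.18, unadjusted p = 0.0266, adjusted p = 0.292 in limma). After median-of-ratios rescaling it was 0.36 (adjusted p = 0.459 in limma).

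**Figure D4:**
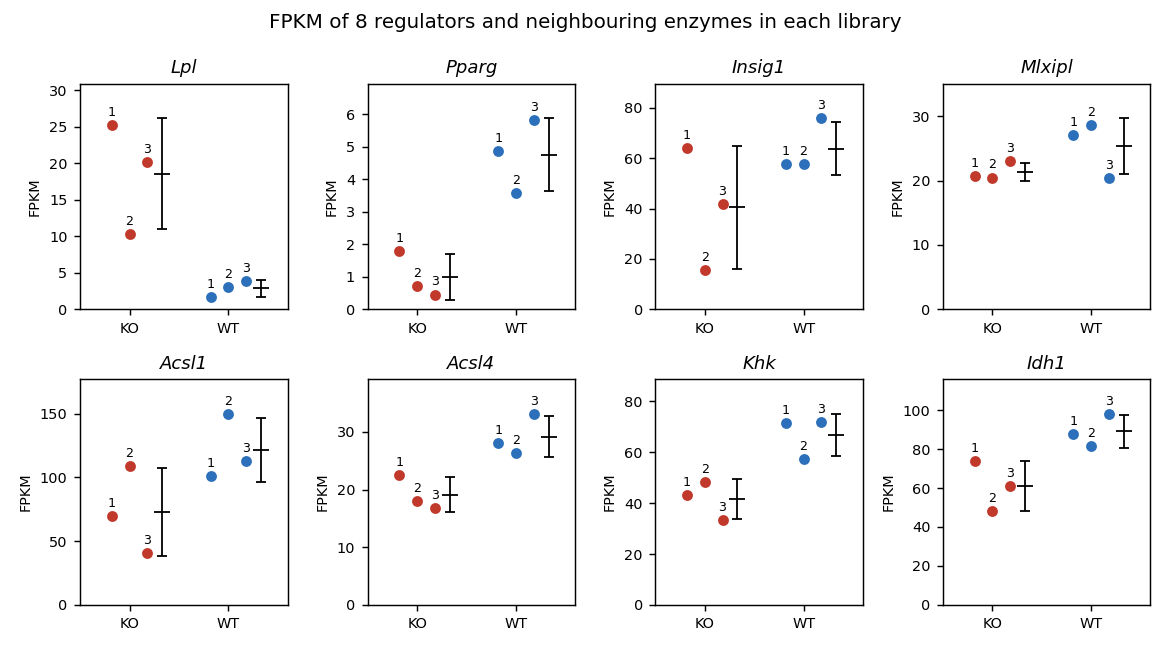
FPKM of 8 regulators and neighbouring enzymes in each library, KO (red) left of WT (blue), with replicate numbers and the mean and SD of 3 libraries. KO lies above WT in all libraries for Lpl and below for Pparg, Acsl4, Khk and Idh1, while Insig1, Mlxipl and Acsl1 overlap.

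Of 16 genes that supply lipogenesis with carbon or NADPH, 0 were called in limma, and at an unadjusted p under 0.05 0 were higher and 2 lower (12.5%) in KO, against 11.2% and 3.99% of all genes tested. The lower genes were Khk, ketohexokinase, through which fructose enters the pathway, and Idh1, a cytosolic source of NADPH. Khk was 43.2, 48.4 and 33.2 FPKM in KO and 71.3, 57.2 and 71.9 FPKM in WT (log2 difference -0.68, SE 0.20, adjusted p = 0.240). Idh1 averaged 61.05 ± 12.8 FPKM in KO and 89.0 ± 8.48 FPKM in WT (log2 difference -0.55, SE 0.20, adjusted p = 0.304). Pklr, the liver pyruvate kinase gene, averaged 30.5 ± 7.99 FPKM in KO and 20.3 ± 3.41 FPKM in WT. Pgd, of the NADPH-producing pentose phosphate pathway, averaged 14.9 ± 2.32 FPKM in KO and 11.2 ± 2.02 FPKM in WT. Pcx, pyruvate carboxylase, averaged 96.8 ± 13.3 FPKM in KO and 127 ± 13.02 FPKM in WT (SD, n = 3 each), and none of these 3 passed the test.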

How the data were processed

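The values are FPKM per gene locus and library, as the authors deposited them, per the file headers, with positions on mm10. TopHat, edgeR, mm9 and mm10 appear in the submitters' processing notes with no role stated. Loci are described as filtered, by a criterion the sources do not give. FPKM divides by transcript length and library total, so a few abundant transcripts shift all other values, and reads of overlapping or similar models are divided by estimation. Read depth is unknown, so no counting intervals are given. All 6 columns carry the same run prefix.

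Of 23847 loci, the 312 marked LOWDATA throughout were dropped, and 0.001, the lowest listed value, was read as 0. Loci with a mean of at least 1 FPKM (10956) were analysed as log2(FPKM + 1), a scale that understates changes of genes near 1 FPKM, in limma 3.58.1 (R 4.3.3) with a genotype term alone and a trended eBayes prior. P-values are two-sided and were adjusted by Benjamini-Hochberg across the 10956; calls have an adjusted p under 0.05. The script was tested on simulated data. Positions count from 1.

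The members and gene lists were chosen with earlier results of these data known. Named members are those with an unadjusted p under 0.05, no overlap between genotypes, a mean of at least 50 FPKM, or a core role (Srebf1, Fasn, Acaca, Scd1, Gpam, Dgat2); Acly, Acsl3 and Lpin1 get values in every library after these were seen. A gene of the supply list is not reported here. From each context list the 5 genes of smallest p are named, with Mlxipl, Nr1h3 and Insig1. Alternatives were a pseudocount of 0.1, no filter, median-of-ratios rescaling, quantile normalization, a replicate block and leaving out each library; overlap after rescaling was added after seeing the data.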

Additional observations from a re-analysis of the deposited data

How the results depend on the processing

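With 0 members called, every alternative also gave 0 (11 alternatives), and 14 of 30 members kept the direction of their log2 difference throughout. Over all genes the calls were 2 higher and 11 lower in KO. Higher calls became 5 with a pseudocount of 0.1, 0 with no filter, 1 after median-of-ratios rescaling, 0 after quantile normalization and 0 to 197 with 1 library left out; lower calls became 6 with no filter and 0 to 45 with 1 library left out. The maximum of each range was without KO replicate 2, and lower calls were 0 without WT replicate 1. The cause was not tested. In the list of regulators and SREBP processing genes, 0 to 1 were called higher with 1 library left out. The 1 was the lipase gene Lpl, without KO replicate 2, where 2.21% of all genes tested were called. The members' median, 0.02, was -0.13 after median-of-ratios rescaling, -0.15 after quantile normalization and -0.10 to 0.082 with 1 library left out.

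With the replicate number as a block the calls were 10 higher and 37 lower, with 0 members among them. Deviations of same-numbered KO and WT libraries correlated at -0.084, 0.16 and 0.16 for numbers 1, 2 and 3. KO replicates 2 and 3 correlated best with the WT library of the same number, and KO replicate 1 with WT replicate 3 (0.17). Deviations were taken from each genotype's own mean, which constrains these correlations, so they cannot settle whether the numbers are pairs. The main fit does not treat them as pairs.

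After median-of-ratios rescaling and quantile normalization the direction turned for Acly (-0.038 and -0.053), Scd1 (-0.050 and -0.020), Agpat6 (-0.0016 and -0.012), Agpat3 (-0.11 and -0.080) and Lpin2 (-0.083 and -0.10). With 1 library left out it turned for 15 members, and their log2 differences ranged as follows: Acly from -0.12 to 0.45, Acss2 from -0.43 to 0.19, Acaca from -0.37 to 0.040, Elovl6 from -0.48 to 0.13, Scd1 from -0.039 to 0.22, Fads1 from -0.77 to 0.030, Fads6 from -0.095 to 0.50, Acsl3 from -0.53 to 0.24, Acsl5 from -0.0063 to 0.38, Gpam from -0.33 to 0.16, Agpat9 from -0.20 to 0.24, Agpat3 from -0.26 to 0.24, Lpin1 from -0.80 to 0.52, Lpin2 from -0.26 to 0.36 and Dgat2 from -0.39 to 0.00072. Fasn ranged from -1.25 to -0.53, Thrsp from -2.38 to -1.14 and Scd2 from 0.63 to 1.37. Insig1 ranged from -1.28 to -0.29. The low values of Elovl3 and Pnpla3 limit what their separation shows.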
